A study of Homo sapiens with 2 samples.

Results

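The replication-dependent histone genes encode the bulk of the histones that are deposited on newly copied DNA. They were taken here as the protein-coding genes of GENCODE 44 (GRCh38) named H1-1 to H1-6, or H2AC, H2BC, H3C or H4C followed by a number, which gave 69 of 20033 protein-coding genes. The set held 6 H1, 17 H2A, 18 H2B, 13 H3 and 15 H4 genes. Chromatin accessibility around their transcription start sites (TSSs) was measured by ATAC-seq, in which a transposase cuts accessible DNA, in 293T cells, a human embryonic kidney line transformed with SV40 large T. The study compared 1 library from cells given 0.5 mM methylglyoxal (MGO), a reactive by-product of glycolysis that forms adducts on histones, for 12 h with 1 library from control cells. Each library was made from 50000 cells. One label names PBS as the control treatment, while the treatment protocol gives fresh medium without supplement. Both groups were otherwise the same cell line in the same medium.

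With 1 library per condition, the differences below compare these libraries, have no replicate check and carry no test. The deposited lists held 36142 control peaks and 22884 MGO peaks, of which 23458 and 15738 lay on chromosomes 1 to 22, X and Y and passed a q-value of 0.01, which is a −log10 q of 2 or more. Over the whole genome 59.0% of these control peaks overlapped an MGO peak. The methods state that reads were subsampled to an equal depth per library, but read counts are not part of the peak lists, so the number of reads behind each peak is unknown, and intervals on shares (exact Clopper-Pearson, 95%) cover counting error only. A peak was assigned to a gene when it covered a start of any of its transcripts or lay within 1000 bp of one. Its −log10 p and its fold enrichment are the peak caller's measures of signal over the local background, and its width is the stretch called accessible. For broad peaks these measures are averages over the called stretch. Strength and width are therefore not independent, and a wider call can by itself lower the strength given for a peak.

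Replication-dependent histone genes are transcribed mainly in S phase, when the cyclin E/CDK2 target NPAT gathers the transcription machinery at the gene clusters in a nuclear compartment called the histone locus body. They are short and without introns, and their mRNA ends in a conserved stem-loop in place of a poly(A) tail. Many H2A and H2B genes stand head to head and share the short DNA between their starts. Histone H1 binds the linker DNA, and H2A, H2B, H3 and H4 form the nucleosome core. In the annotation all 69 canonical transcripts had a single exon, with a median length of 487 bp (386 to 2224 bp).

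The stem-loop, which marks the 3′ end that SLBP binds, is shown because it is what the genes share whatever their family. The search, over up to 1100 bases after the start, used a known pattern: GG, CTTTT, AG and CC, with any bases in the gaps between them. A match was found in 61 of the 64 genes searched, at a median of 470 bp from the start (365 to 776 bp). The forms could therefore differ only in the gaps. No match was found in H2BC10, H3C6 and H4C13, where a stem-loop with a change at a fixed base would have been missed. The most frequent forms follow, in DNA letters and all in capitals.
Stem-loop of 37 genes of the H1, H2A, H2B and H3 families: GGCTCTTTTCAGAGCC
Stem-loop of 9 genes of the same families: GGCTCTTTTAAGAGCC
Stem-loop of 8 H4 genes: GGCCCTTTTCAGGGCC
Stem-loop of 4 H4 genes: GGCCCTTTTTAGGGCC
The stem thus differed between the H4 genes and the other families, and 3 further genes (H2AC11, H2AC15 and H2AC20) each had a form of their own. The stem-loop lay inside the control peak for 29 of the 42 genes with both, and inside the MGO peak for 26 of 41.

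Head-to-head H2A and H2B genes share the DNA between their starts as a promoter, and 4 of these spacers are shown for pairs that the peak lists treat differently. Each is written 5′ to 3′ in the direction of the H2B gene from start to start (GRCh38), with CCAAT, the octamer ATTTGCAT and TATAAA, on either strand, in capitals.
H2AC25/H2BC26 (chr1:228457873-228458103, plus strand): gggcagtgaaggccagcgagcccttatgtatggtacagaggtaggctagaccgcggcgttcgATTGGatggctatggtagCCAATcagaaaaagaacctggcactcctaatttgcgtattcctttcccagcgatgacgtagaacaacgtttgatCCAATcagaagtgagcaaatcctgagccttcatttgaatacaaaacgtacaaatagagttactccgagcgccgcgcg
H2BC4/H2AC6 (chr6:26123926-26124172, minus strand): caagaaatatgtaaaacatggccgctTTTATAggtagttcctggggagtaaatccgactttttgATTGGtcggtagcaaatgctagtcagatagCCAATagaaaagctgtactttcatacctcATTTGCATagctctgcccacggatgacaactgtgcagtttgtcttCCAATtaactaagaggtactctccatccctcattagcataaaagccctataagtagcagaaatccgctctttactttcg
H2BC13/H2AC13 (chr6:27807929-27808173, minus strand): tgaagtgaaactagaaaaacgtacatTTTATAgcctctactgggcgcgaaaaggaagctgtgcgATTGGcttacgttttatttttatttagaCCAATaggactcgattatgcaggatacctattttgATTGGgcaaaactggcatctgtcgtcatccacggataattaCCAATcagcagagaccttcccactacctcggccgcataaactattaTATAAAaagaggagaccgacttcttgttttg
H2AC14/H2BC14 (chr6:27814777-27815022, plus strand): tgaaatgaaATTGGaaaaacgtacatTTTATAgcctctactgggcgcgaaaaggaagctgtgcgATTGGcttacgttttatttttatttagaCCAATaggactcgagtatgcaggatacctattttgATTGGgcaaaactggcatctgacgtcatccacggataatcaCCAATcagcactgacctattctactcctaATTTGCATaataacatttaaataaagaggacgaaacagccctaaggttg
The H2AC25/H2BC26 spacer lay in the strongest control peak of all histone genes, and the H2BC4/H2AC6 spacer in the peak with the largest MGO to control width ratio. The H2BC13/H2AC13 and H2AC14/H2BC14 spacers were identical at 86.3% of 249 aligned positions, and the first lay in a peak in both lists and the second in none. Of this pair, the spacer with the exact octamer was the one without a peak. For scale, the H2BC13/H2AC13 spacer was identical to that of H2AC7/H2BC7 at 52.1% of 267 aligned positions. The share of sequence words unique in the genome (described below) was 55.7% in the H2BC13/H2AC13 control peak and 63.3% in its MGO peak. Near the starts of H2AC14 and H2BC14 it was 65.7% and 79.1%. Some reads of these similar genes therefore cannot be told apart, which limits the contrast between their calls.

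For H4, the 150 bases before the start are shown for 3 genes, with GGTCCG (the core of the element bound by HINFP, the H4 gene transcription factor), TATAAA and CCAAT, on either strand, in capitals.
H4C11 (chr6:27823942-27824091, plus strand): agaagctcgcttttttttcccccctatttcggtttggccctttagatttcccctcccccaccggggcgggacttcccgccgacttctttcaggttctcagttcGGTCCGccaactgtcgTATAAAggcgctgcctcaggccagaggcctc
H4C12 (chr6:27831561-27831710, minus strand): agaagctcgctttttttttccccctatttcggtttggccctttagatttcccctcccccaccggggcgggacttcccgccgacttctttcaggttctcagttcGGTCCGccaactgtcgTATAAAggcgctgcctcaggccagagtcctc
H4C7 (chr6:26246997-26247146, minus strand): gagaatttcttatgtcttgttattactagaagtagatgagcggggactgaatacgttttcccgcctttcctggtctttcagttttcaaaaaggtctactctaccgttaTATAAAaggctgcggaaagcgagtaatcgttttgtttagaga
H4C11 and H4C12 were identical at 295 of 300 promoter positions (98.3%). H4C11 had a peak in both lists and H4C12 in the control list only. The share of sequence words unique in the genome (described below) was 60.8% in the H4C11 control peak and 21.3% in its MGO peak. In the H4C12 control peak it was 0%. Reads of these copies can be told apart only in part, so the calls cannot show whether the copies differed. H4C7 had no peak and was the 1 of 13 H4 promoters without GGTCCG. H4C6, H4C9 and H4C13 also had no peak, and their promoters held GGTCCG.

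RefSeq promoter sequences (GRCh38, 250 bases before to 50 after the start) matched 64 of the 69 genes. Entries for H4C1, H4C3, H2AC12, H3C11 and H3C12 were missing. The words searched on both strands were the TATA box (TATAAA), the CCAAT box (CCAAT), the octamer (ATTTGCAT), the HINFP core (GGTCCG) and the H1 box of linker histone promoters (AAACACA), and no word contains another. TATAAA was present in 65.6% of the histone promoters against 11.5% of all 35116 promoters in the table, CCAAT in 84.4% against 34.6%, and the octamer, which POU2F1 binds, in 39.1% against 1.77%. The families differed in the words they held. CCAAT was found in all 51 H1, H2A, H2B and H3 promoters and in 3 of 13 H4 promoters. The octamer was found in 14 of 18 H2B and 11 of 16 H2A promoters and in no H1, H3 or H4 promoter. Head-to-head H2A and H2B genes share most of these bases, so a word in a shared spacer counted for both genes. The counts and shares of histone promoters are therefore not of independent sequences. GGTCCG was found in 12 of 13 H4 promoters and in 1 promoter each of H2A, H2B and H3, against 11.3% of all promoters. The H2A and H2B promoters with GGTCCG were those of H2AC20 and H2BC21, which share a spacer. AAACACA was found in 6 of 6 H1 promoters, 1 H2A and 2 H3 promoters, against 5.64% of all promoters. The median GC content was 43.7% against 58.7% for all promoters.

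In the control library 47 of 69 histone genes had a TSS peak, which is 68.1% (55.8 to 78.8%), near the 63.3% of all protein-coding genes. In the MGO library 45 did, which is 65.2% (52.8 to 76.3%) beside 57.8%. A total of 44 genes had a peak in both lists, 3 in the control list only, 1 in the MGO list only and 21 in neither. Of the 47 genes with a control peak, 44 also had an MGO peak, which is 93.6% (82.5 to 98.7%) beside 89.1% for all protein-coding genes. These shares lay near their backgrounds. Their intervals treat genes as independent, although neighbouring genes share peaks, so they can be too narrow. The order of the libraries also turned when equal numbers of peaks were taken by −log10 p. There 41 histone genes had a control peak (59.4%, beside 55.1% of all protein-coding genes). The MGO list, being the shorter, was unchanged, with 45 genes (65.2%, beside 57.8%). The order thus turned for all protein-coding genes as well.

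The small distance between the libraries depended on how strong a peak had to be. At a −log10 q of at least 5, 22 histone genes kept a control peak (31.9%, beside 43.0% of all protein-coding genes) and 11 an MGO peak (15.9%, beside 31.5%). At that threshold 7 of 15 distinct control peaks of histone genes were overlapped in MGO (46.7%, 21.3 to 73.4%), beside 67.7% of the 7688 control TSS peaks of all protein-coding genes. At a fold enrichment of at least 4, only H4C3, H4C4 and H3C6 kept a control peak and no histone gene kept an MGO peak (0 of 69, with an exact upper bound of 5.21%), beside 20.8% and 10.2% of all protein-coding genes.

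**Figure D1:**
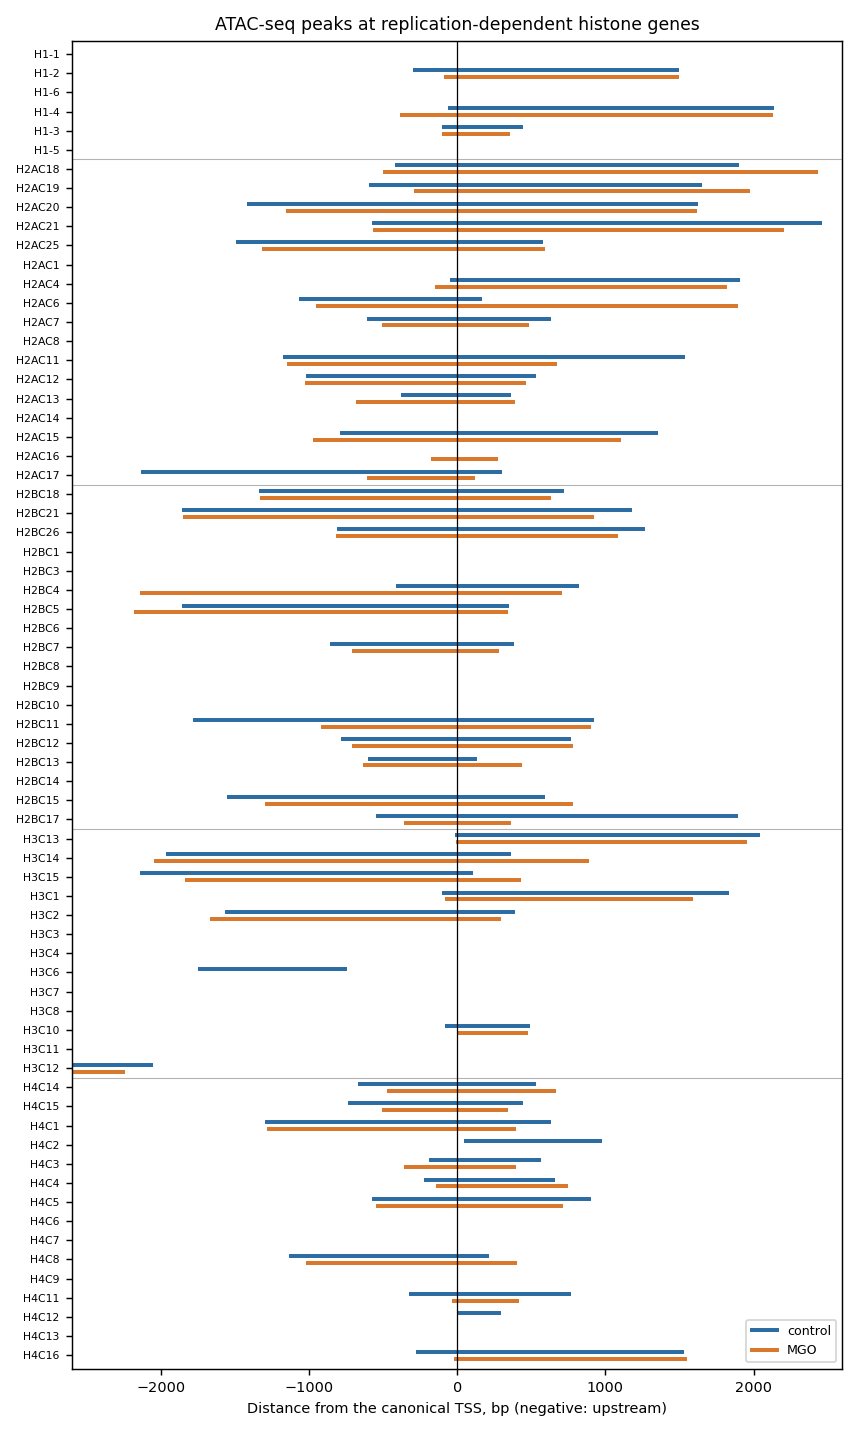
Extent of the control peak (blue) and the MGO peak (orange) of each of the 69 histone genes, in bp from its canonical TSS, with genes grouped by family. Rows are blank for the 21 genes without a peak and for H2BC6, whose peaks lie beyond the plotted range, and the bars of H3C12 are cut at the left edge.

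Of the linker histone genes, 3 of 6 had a TSS peak in both lists and 3 had none. At H1-2, the control peak was 1795 bp wide with a −log10 p of 7.81 and the MGO peak 1587 bp wide with 8.82, so the MGO peak was narrower and stronger. At H1-3, the peak was 550 bp wide in control and 460 bp in MGO, with −log10 p of 5.50 and 4.94. H1-4 shared its peak with H2BC5, and there the peak was 2205 bp wide in control and 2519 bp in MGO, with −log10 p of 8.67 and 5.85. No peak was called at H1-1, H1-5 and H1-6, the last being the testis-specific linker histone gene.

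Of the H2A genes, 13 of 17 had a peak in control and 14 in MGO. H2AC16 was the gene with a peak in MGO only, 457 bp wide with a fold enrichment of 3.62 and a −log10 p of 6.40. A weaker control peak was deposited there, with a −log10 q of 1.78, under the threshold of 2. The genes with no peak were H2AC1, which with H2BC1 is a testis-specific pair, H2AC8 and H2AC14. Median −log10 p was 6.81 in control and 6.39 in MGO, and median width 2146 and 1938.5 bp.

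Of the H2B genes, the same 12 of 18 had a peak in each list. H2BC1, H2BC3, H2BC8, H2BC9, H2BC10 and H2BC14 had none. Median −log10 p was 7.55 in control and 6.36 in MGO, with median widths of 2067.5 and 1864.5 bp. H2BC6 had its peak only at an alternative start far upstream, with a −log10 p of 4.97 in control and 6.22 in MGO, while the nearest control peak to its canonical start lay 4690 bp away.

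Of the 13 H3 genes, 8 had a peak in the control list and 7 in the MGO list. H3C6 was called in control only. Its control peak was 1008 bp wide with a fold enrichment of 4.25, the highest of all histone gene peaks, and a −log10 p of 9.09, and the MGO list held only a weaker peak with a −log10 q of 1.56. That control peak covered an alternative start and ended 742 bp upstream of the canonical one. The genes with no peak were H3C3, H3C4, H3C7, H3C8 and H3C11, and at H3C7 weaker peaks were deposited in both lists (−log10 q of 1.44 in control and 1.78 in MGO). H3C12 had a peak only through an alternative start that lies by the H2AC17/H2BC17 pair.

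Of the 15 H4 genes, the control list had a peak at 11 and the MGO list at 9, and H4C2 and H4C12 were the genes with a control peak only. The H4C2 peak was 931 bp wide with a −log10 p of 4.46, the lowest of the histone gene control peaks. The H4C12 peak was 298 bp wide, the narrowest, with a −log10 p of 5.31, and held no 50-base word that is unique in the genome. Near neither gene did the MGO list hold a peak within 1000 bp, also without the threshold on q. H4C6, H4C7, H4C9 and H4C13 had no peak in either list. Counted by gene, H4 peaks were the narrowest among the core histone families, with a median of 1183 bp in control and 1144 bp in MGO. The family medians here and above count a shared peak once for each of its genes. Among the H4 genes, only H4C1 shared its peak with another histone gene, H3C1. Distinct peaks with 1 histone gene, of any family, had medians of 1100 bp in control and 892 bp in MGO.

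**Figure D2:**
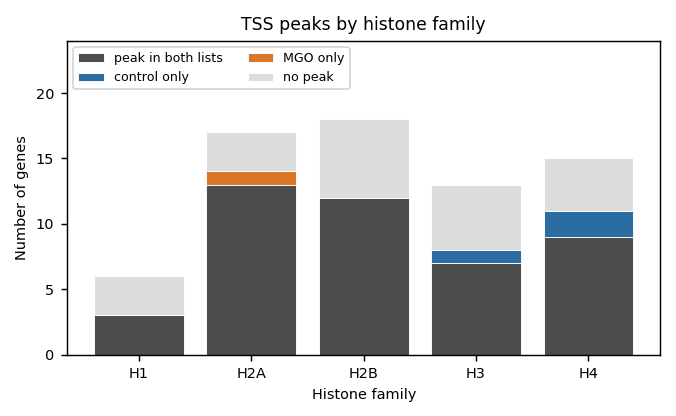
Number of genes in each histone family with a TSS peak in both lists, in the control list only, in the MGO list only, or in neither. The 3 genes with a control peak only are 1 H3 and 2 H4 genes, and the gene with an MGO peak only is an H2A gene.

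Because neighbouring genes share peaks, the 47 genes with a control peak rested on 30 distinct peaks, 15 of which held 1 histone gene, 13 held 2 and 2 held 3. The MGO list had 28. An MGO peak overlapped 27 of the 30 (90%, 73.5 to 97.9%), beside 85.6% of the 11991 control TSS peaks of all protein-coding genes. Histone gene peaks had a larger median width and a lower median −log10 p than TSS peaks at large. Median width was 1518.5 bp in control and 1459 bp in MGO, against 1106 and 1031 bp for TSS peaks of all protein-coding genes. Shared peaks were the wider ones, which is partly built in, since a wide peak reaches more starts. The 15 control and 15 MGO peaks with 2 or 3 histone genes had medians of 2074 and 1963 bp. The 15 control and 13 MGO peaks with 1 gene had 1100 and 892 bp. TSS peaks of all genes were not split in this way. Over all distinct histone gene peaks, median −log10 p was 7.55 and 6.39, against 9.08 and 7.87 for TSS peaks of all protein-coding genes. In control 25 of 30 lay below the median fold enrichment of all TSS peaks, which was 3.63.

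Setting the peaks beside others of like strength gave the following. Control TSS peaks were divided by −log10 p into 5 bins of equal size. In bin 1, the weakest, 6 of 8 histone gene peaks were overlapped in MGO, where 51.8% of all such peaks were. In bin 2 all 9 of 9 were, beside 82.4%, and in bin 3 8 of 9, beside 94.8%. The 4 histone gene peaks in bins 4 and 5 were all overlapped, as were 99.1% and 99.9% of all peaks there. The 3 control peaks without an overlapping MGO peak were those of H4C2 and H4C12 in bin 1 and H3C6 in bin 3.

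The 27 peaks that paired 1 to 1 between the lists were compared in width and strength. The median MGO to control width ratio was 0.920 (0.836 to 1.01, exact order-statistic interval), with a range of 0.298 to 2.31, and it was 0.903 over 10246 pairs of all protein-coding genes. The MGO peak was narrower in 19 of 27 pairs, which is 70.4% (49.8 to 86.2%) beside 68.5% of all pairs. Its −log10 p was lower in 20 of 27, which is 74.1% (53.7 to 88.9%) beside 78.5%. These shares again lay near their backgrounds. The median difference in −log10 p (MGO minus control) was −0.95 (−1.65 to −0.34) for histone genes and −1.92 for all pairs. Between pairs of like strength this gap was small: with a control −log10 p from 5 to under 9, a range chosen after the values were seen, it was −0.59 for 17 histone gene pairs and −0.63 for 3805 pairs of all protein-coding genes.

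The strongest control peaks behaved unlike each other. The peak over H2AC25 and H2BC26, on chromosome 1 far from the clusters, had a −log10 p of 14.35 in control and 14.01 in MGO, and was 2074 and 1909 bp wide. The peak over H2BC4 and H2AC6 fell from 13.1 to 6.50, while its width rose from 1234 to 2849 bp. H4C16, the only member on chromosome 12, had 12.8 in control and 7.22 in MGO, with widths of 1812 and 1575 bp. H4C3, which is not among the 5 strongest genes of the naming rule and was added after the values were seen, had 11.8 and 5.36. Its width was almost the same (757 and 756 bp). In 3 of these 4 peaks −log10 p was thus lower by more than 5 in MGO, and in the H2AC25/H2BC26 peak it differed by −0.34. A control −log10 p from 11 to under 15, a range set around these 4 peaks, held 2175 pairs of all protein-coding genes. Of these, 500 were lower by more than 5 (22.99%), and the median difference was −3.31.

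The 3 lowest and 3 highest width ratios were those of H2AC17/H2BC17, H4C11 and H2BC6, and those of H2BC4/H2AC6, H2BC13/H2AC13 and H3C14/H2AC18. At H2BC4/H2AC6 the MGO peak reached 1727 bp further to the right, over the whole of H2AC6, so that the covered share of that gene went from 32.0% to 100%. At H2AC17/H2BC17, with the alternative start of H3C12, the peak was 2440 bp wide in control and 726 bp in MGO, and its right edge moved by −1528 bp; −log10 p was 6.81 and 5.71. At H2BC13/H2AC13 the peak was among the weakest in control and was both wider and stronger in MGO, with 738 and 1071 bp and a −log10 p of 5.47 and 7.10. The H2BC6 peak was 1783 bp wide in control and 1099 bp in MGO, and the H3C14/H2AC18 peak, which holds no unique 50-base word, 2323 and 2936 bp. H4C11 had a peak of 1100 bp in control and 452 bp in MGO, with a −log10 p of 8.64 and 5.08.

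**Figure D3:**
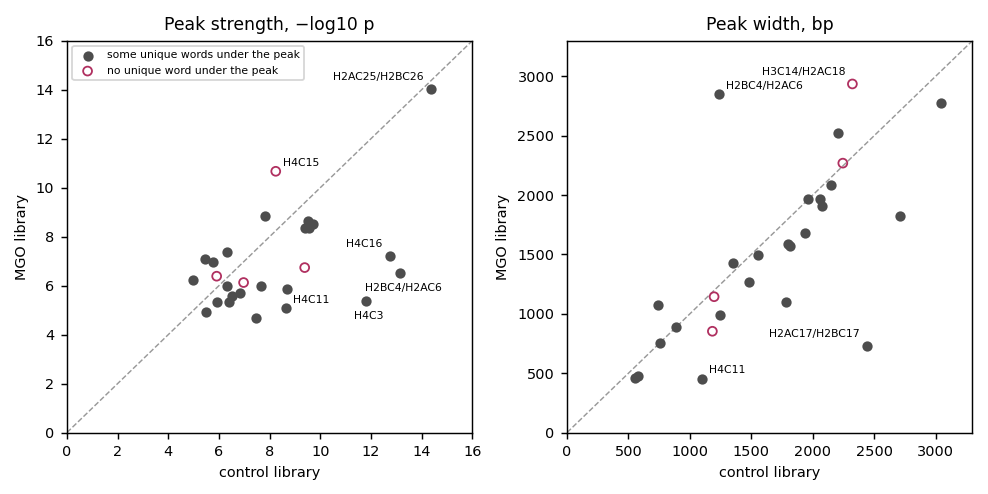
Peak strength (left, −log10 p) and width (right, bp) of the 27 histone gene peaks that pair 1 to 1 between the lists, control library on the horizontal and MGO library on the vertical axis, with the dashed line at equal values and open circles for peaks that hold no unique 50-base word. In strength 20 of 27 points lie below the line, and in width 19 of 27 do.

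Head-to-head pairs of histone genes shared a peak or had none. Of 13 pairs of histone genes with divergent starts at most 1000 bp apart, 12 joined an H2A and an H2B gene at 194 to 251 bp and 1 joined H3C7 and H2BC9 at 979 bp. In both lists 9 pairs had 1 peak over both starts and the same 4 had none: H2AC1/H2BC1, H2BC8/H2AC8, H2AC14/H2BC14 and H3C7/H2BC9. No pair had a peak at 1 start only. For the H2A/H2B pairs this was nearly fixed in advance. Starts 194 to 251 bp apart mostly fall within 1000 bp of the same peak. Divergent pairs of other genes were not compared. Genes in such pairs had a peak in 18 of 26 cases in each list (69.2%), and the other histone genes in 29 of 43 in control (67.4%) and 27 of 43 in MGO (62.8%). All 4 genes with a peak in 1 list only, H4C2, H3C6, H4C12 and H2AC16, stood outside head-to-head pairs, as did 43 histone genes in all.

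The promoter words occurred both with and without a peak, again with words in shared spacers counted for both genes. TATAAA was present in 70.0% of 40 promoters of genes with a peak in both lists and 60.0% of 20 promoters of genes with none. CCAAT was present in 82.5% and 95%, and the octamer in 37.5% and 45.0%. GGTCCG was present in 22.5% and 20%, and AAACACA in 15% and 15%.

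Peaks covered the gene bodies as well as the starts. The span of the canonical transcript was touched by a peak in either list at 45 of 69 genes, and a peak covered the whole gene at 30 in control and 26 in MGO. Between the libraries the covered share was lower in MGO at 14 genes, higher at 7 and equal at 24. The mean covered share over all 69 genes was 55.7% in control and 56.1% in MGO. For the other 703 single-exon protein-coding genes of at most 2000 bp, of which 72 were touched, it was 5.68% and 4.64%, and the share was lower in MGO at 43 and higher at 18.

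Around the canonical TSS, the share of histone genes covered was highest 50 bp downstream, at 63.8% in control and 62.3% in MGO. For all protein-coding genes it was highest at the TSS itself, at 56.6% and 51.7%. From control to MGO, the covered share of histone genes fell by 8.70 percentage points at most, at 1400 bp upstream. That of all protein-coding genes fell by 9.49 points at most, at 350 bp upstream.

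**Figure D4:**
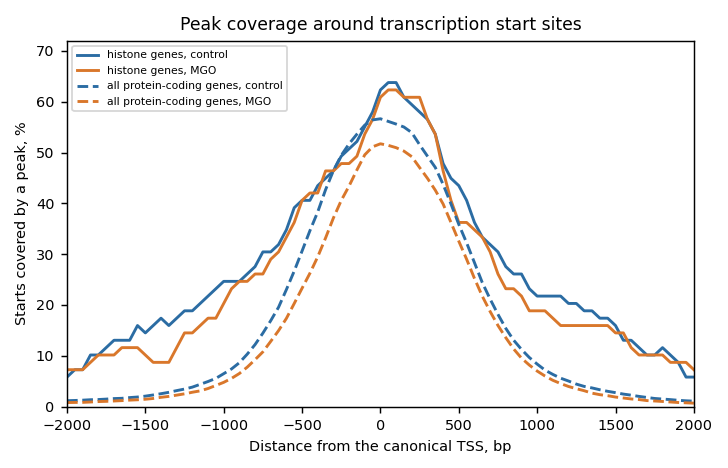
Share of canonical TSSs covered by a peak (vertical, %) against distance from the TSS (horizontal, bp), for the 69 histone genes (solid) and all 20033 protein-coding genes (dashed), in control (blue) and MGO (orange). The solid lines reach 63.8% and 62.3%, and the dashed lines 56.6% and 51.7%.

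The histone genes lie in 4 stretches when members less than 500 kb apart are joined, and the stretches differed in how many of their genes had a peak. On chromosome 1 (chr1:149782689-149887965) all 11 genes had a peak in both lists. In the large cluster on chromosome 6 (chr6:25723397-26285638, 562 kb) 19 of 34 genes had a peak in control and 17 in MGO. In the small one (chr6:27125897-27147562) 4 of 5 did in both lists. In the last (chr6:27807479-27893891) 10 of 16 did in each list, H4C12 in control and H2AC16 in MGO being among them. H2AC25 and H2BC26 (starts at 228457873 and 228458103 of chromosome 1) and H4C16 (start at 14771131 of chromosome 12) lay outside, each with a peak in both lists.

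All accessible DNA called in these 4 stretches lay at transcription starts. Over 776 kb the control list had 30 peaks, 28 at histone genes, 2 at starts of other genes (LINC02980 and ENSG00000233030) and 0 distal to any start. The MGO list had 28, with 26, 2 and 0. An MGO peak overlapped 27 of the 30 control peaks (90%, 73.5 to 97.9%), beside the 85.6% of control TSS peaks and 59.0% of all control peaks given above. The covered length was 45.0 kb in control and 40.2 kb in MGO, with mean peak widths of 1501 and 1436 bp. The ratio of covered length was 0.993 on chromosome 1 and 0.916, 0.776 and 0.721 in the chromosome 6 stretches in genomic order. In the last, the H2AC17/H2BC17 and H4C11 peaks account for the 2 smallest width ratios.

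Near-identical gene copies limit these values, since the methods state that multi-mapping reads were removed. Of the words of 50 bases within 500 bp of the start, none was unique in the genome for 6 genes, all on chromosome 1: H4C14, H3C14, H2AC18, H2AC19, H3C15 and H4C15. Their promoters were identical at 100% (H4C14 and H4C15), 97.4% (H3C14 and H3C15) and 99.3% (H2AC18 and H2AC19) of aligned positions. In the H3 and H2A pairs the remaining positions were alignment gaps, with no differing base. All 6 nevertheless had a peak in both lists, the strongest being H4C15 in MGO with a −log10 p of 10.7 (8.24 in control), and reads of the copies cannot be told apart there. Without the 6 genes, 41 of 63 had a peak in control and 39 in MGO, 38 of the 41 had both (92.7%), and the median width ratio was 0.912 (n = 23). The 63 still include partial copies such as H4C11 and H4C12, each with 56.7% unique words near the start. Among the 21 genes with no peak the median share of unique words was 100%, and only H2AC14 (65.7%) and H2BC14 (79.1%) were under 90%.

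**Figure D5:**
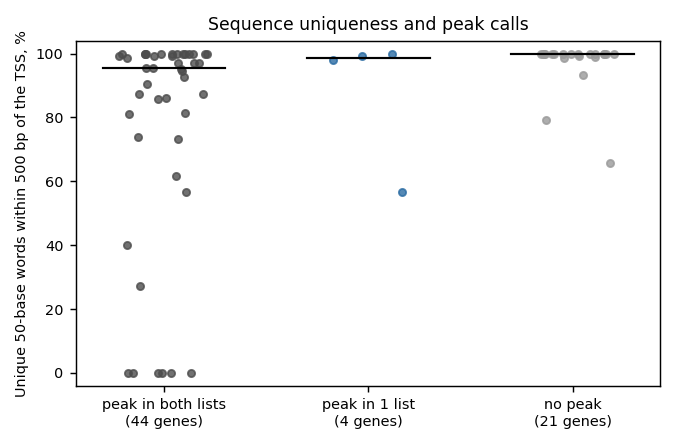
Share of 50-base words within 500 bp of the canonical TSS that occur once in the genome (vertical, %), for histone genes with a peak in both lists, in 1 list, or in none, with each point a gene and the line the median. The 6 genes at 0 all have a peak in both lists, and 19 of the 21 genes without a peak lie at 90% or above.

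All 9 genes of the transcription list had a TSS peak in both lists, where 63.3% of all protein-coding genes had one in control and 57.8% in MGO. The median width ratio was 0.976, beside 0.903 for TSS pairs of all protein-coding genes. The −log10 p was lower in MGO at 7 genes and higher at 2. Over all TSS pairs it was lower in 78.5%, so this count lay near its background. NPAT, the coactivator of the histone locus body, went from a −log10 p of 21.87 to 14.04, and HINFP from 10.9 to 8.83. The cyclin E gene CCNE1 had 6.89 in control and 7.43 in MGO. All 9 genes of the 3′ end processing list also had a peak in both lists. Their median width ratio was 0.956, and −log10 p was lower in MGO at 8 of 9, again near the 78.5% of all TSS pairs. There SLBP, which binds the stem-loop, had a −log10 p of 9.62 in control and 8.52 in MGO, and the U7 snRNP gene LSM11 had 10.8 and 7.85. The exception was SYMPK, a scaffold of the cleavage complex, with 5.07 in control and 7.36 in MGO.

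The replacement and variant histones, which are also made outside S phase, mostly from genes with polyadenylated transcripts, served for comparison. Of 11, 9 had a peak in both lists, and H2AJ and H3-5 had none. The median width ratio of the 8 with overlapping peaks was 0.957, and −log10 p was lower in MGO at 4 and higher at 4, beside lower in 78.5% of all TSS pairs. H3-3A, which encodes the replacement histone H3.3, had a −log10 p of 14.8 in control and 15.9 in MGO with widths of 3190 and 1924 bp, and CENPA, the centromeric H3 variant, had 13.6 and 7.83.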

How the data were processed

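ATAC-seq was performed on 293T cells, with 1 control and 1 MGO library analysed. Per the study's methods, the authors aligned paired reads of 50 bp to GRCh38 with BWA-MEM 0.7.15 (per the labels also bcl2fastq 2.19, Picard 2.16.0, bedtools and MACS2), removed mitochondrial and multi-mapping reads, subsampled to equal depth and called broad peaks per library outside the ENCODE blacklist; a q-value under 0.01 was then required, and the methods also describe consensus peaks by irreproducible discovery rate, not analysed here. The version of MACS2 and its other settings are not given in the sources used here. The deposited values per peak are a ratio (fold enrichment over background), −log10 p and −log10 q, and a score that was left unused. Whether further libraries exist is not known from these files.

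Peaks reaching −log10 q 2 on chromosomes 1 to 22, X and Y entered. TSSs came from GENCODE 44, and lists overlapped from 1 bp. Sequence uniqueness used 50-base words on both strands of GRCh38. Shares carry exact Clopper-Pearson intervals, and medians exact order-statistic intervals. The overlap and width computations were tested on simulated peak lists and against bedtools 2.31.1. Python 3.11.15, numpy 2.4.6, pandas 2.3.3, scipy 1.17.1 and matplotlib 3.10.9 were used.

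The genes, lists and alternatives were chosen with earlier results of these data known. The naming rule was: genes with a peak in 1 list or none, the 5 strongest and 5 weakest by control −log10 p, the 3 extremes of width ratio at each end, the testis-specific genes and those outside the clusters. Other members were named by family after their values were seen. The lists were transcription (NPAT, CASP8AP2, HINFP, POU2F1, GON4L, CRAMP1, YY1, CCNE1, CDK2), 3′ end processing (SLBP, LSM10, LSM11, ZNF473, CPSF2, CPSF3, SYMPK, CSTF2, ERI1) and replacement or variant histones, 1 gene of which is not reported here. Tried as alternatives were every deposited peak, minimums of 5 for −log10 q and 4 for fold enrichment, equal numbers of peaks, windows of 500 and 2000 bp, the canonical transcript only, overlap of at least 50% of the control peak and, added after the data were seen, leaving out genes without a unique word.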

Additional observations from a re-analysis of the deposited data

How the results depend on the processing

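Of 49 recomputed values, 37 lay within the interval of the reported value and 12 outside it, all of them at the stricter thresholds. At a −log10 q of at least 5, the share of histone genes with a peak was 31.9% in control and 15.9% in MGO, the share of control-peak genes with an MGO peak 50%, the overlapped share 46.7% of distinct gene peaks and 50% of cluster peaks, and the median difference in covered gene span −13.4 points. At a fold enrichment of at least 4, the control share was 4.35%, the MGO share and all 3 kept shares were 0% (0 of 69, 0 of 3, 0 of 3 and 0 of 4), and the covered span of the 2 genes touched differed by −100 points; no width ratio could be computed. These settings leave fewer peaks by construction. Equal numbers of peaks, all deposited peaks, other windows, canonical starts, 50% overlap and leaving out genes without a unique word moved no value outside its interval. Equal numbers nevertheless gave control a lower share (59.4%) than MGO (65.2%), as they did for all protein-coding genes (55.1% and 57.8%). No paired analysis was possible because each condition had 1 library, so no replicate was left out either. The lists carry no read counts, so no limit from depth could be computed.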

Other observations

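Peaks that held no unique 50-base word made up 395 of 23458 control peaks (1.68%) and 503 of 15738 MGO peaks (3.196%), although multi-mapping reads are described as removed. Among histone genes with a peak in both lists, 18 of 44 had under 90% unique words near the start, against 2 of 21 genes with no peak. Of all protein-coding genes, 8.17% were under 90% and 1.29% had no unique word. How the reads of near-identical copies were placed was not tested.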
